A study of Mus musculus with 12 samples.

Results

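The mitosis genes described here are a list of 53 genes that act from the end of the G2 phase to cytokinesis, with the spindle and the kinetochore between. They were followed in fibroblasts sorted from mouse lung. Each gene was represented by the probe set, the group of array probes that reads 1 transcript, with the highest mean over the 12 arrays. A probe set with a gene name was found for 51 of the 53, among 17097 genes in all. Ccnb1 and Nuf2 had none and were not analysed here. Of the 51, 42 lay above the median of all values on the arrays (log2 5.101) on at least 2 arrays and were tested, among 11073 genes tested in all. The other 9 (Nek2, Bub1, Ttk, Kif15, Kif23, Kif4, Hmmr, Anln and Ect2) lay below this filter and are given by their values alone.

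The cells came from animals with a GFP reporter of Pdgfra, the gene of PDGF receptor alpha, and were sorted into a bright and a dim gate. Lungs were taken on day 5 after a sham operation (SHAM), after removal of part of the lung (PNX), or after the same removal in animals with a dominant-negative form of FGF receptor 2 (PNX-dnFGFR), so that all 6 groups carry the reporter and have had surgery. The labels call the 2 arrays of each group biological replicates. Not given in the sources used here are whether each is 1 animal or a pool, the animals' age and strain, and the promoter that drives the dominant-negative receptor. Material from 2000 cells per array was amplified over 25 cycles. P-values measure the spread between these arrays. The gates may share animals, a pairing that the fit does not use, so p-values of gate differences may be too large or too small. Values are deposited log2 signals, on which a difference of 1 is a 2-fold difference. The median of an array lay between 5.06 and 5.13.

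The names bright and dim are used here as the labels give them. The Pdgfra transcript itself ran against them. Its group means on the arrays labelled dim were 7.03 after SHAM, 6.82 after PNX and 6.96 with PNX-dnFGFR, and on those labelled bright 5.18, 4.96 and 5.42. It was lower on the bright arrays by 1.75 ± 0.10 (SE; difference -1.75, n = 6 arrays per gate, limma adjusted p = 9.9e-07). Every direction between gates below rests on the labels. The defining fibroblast gene Col1a1, a chain of type I collagen, was between 11.88 and 12.44 in the groups, and the mean of 11 fibroblast markers was 8.11 to 8.49 on dim and 9.57 to 9.70 on bright arrays.

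Mitosis is driven by cyclin-dependent kinase 1 with its cyclins, which brings about chromosome condensation and the building of the spindle. Kinetochores tie chromosomes to spindle microtubules, a checkpoint holds the cell until all are attached, and the anaphase-promoting complex then marks cyclin B and securin for destruction, so that sister chromatids part and the cell divides. Most of these genes are transcribed late in the cell cycle, when the MuvB complex with B-Myb and FOXM1 acts at their promoters. In resting cells the DREAM complex holds them low through a promoter element called CHR. In adult lung few fibroblasts cycle, and their transcripts are often used as a sign of dividing cells. In sorted bulk material, fewer cells of a type and less RNA per cell cannot be told apart.

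The promoters of the list share sequence that the choice of genes did not use. RefSeq promoter windows (build GRCm38.p6, 250 bases before to 50 after the start) were at hand for 45 of the 53 genes, in 47 windows. The letters of CHR (TTTGAA or TTCGAA, either strand) stood in 36 of the 47 windows, or 76.6%, against 17.6% of all 21262 windows of that length. The CCAAT box, which binds NF-Y (CCAAT, either strand), stood in 72.3% against 38.2%, and both motifs together in 63.8% against 7.11%. At least 2 CCAAT boxes were found in 48.9% against 12.8%. E2F sites, typical of S phase genes (TTTGGCGC, TTTCCCGC, TTTGCCGC or TTTCGCGC, either strand), stood in 8.51% of the windows against 2.85% of all. In the 42 windows of a list of DNA replication and S phase genes, CHR stood in 16.7%, E2F sites in 38.1%, the CCAAT box in 59.5% and at least 2 boxes in 35.7%. In the 54 windows of a list of other mitosis genes, CHR stood in 61.1%, the CCAAT box in 66.7% and both in 42.6%. The shared sequence is thus not particular to the members.

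The 120 bases before the start are shown for 6 members, the first 5 because they hold both motifs near the start, as many members do, and Birc5 because its window holds neither although its values below are among the most separated. Capitals mark a CHR or CCAAT match in either orientation (ATTGG and TTCAAA are matches on the other strand), each line runs 5′ to 3′ along the gene's own strand, and positions count back from the start. In Cdk1 the CHR letters begin at -71 and -15 and the CCAAT boxes at -80 and -48. In Cdc20 the CHR begins at -18 and the boxes at -53 and -8. In Ube2c these are at -29, -88 and -57, and in Prc1 (the second of its 2 windows) at -30 and -62. Top2a holds CHR letters at -120 and -23 and boxes at -98, -78 and -58. A match is a description of letters, not of binding.
Cdk1, chr10:69352913-69353032, minus strand: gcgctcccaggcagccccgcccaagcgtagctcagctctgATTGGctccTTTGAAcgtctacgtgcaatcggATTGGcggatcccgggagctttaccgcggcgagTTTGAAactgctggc
Cdc20, chr4:118437344-118437463, minus strand: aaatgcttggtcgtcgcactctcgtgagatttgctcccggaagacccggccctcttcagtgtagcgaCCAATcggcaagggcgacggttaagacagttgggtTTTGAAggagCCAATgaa
Ube2c, chr2:164769809-164769928, plus strand: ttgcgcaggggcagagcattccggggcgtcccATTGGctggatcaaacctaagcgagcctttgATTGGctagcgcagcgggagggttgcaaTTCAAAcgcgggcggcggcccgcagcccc
Top2a, chr11:99024190-99024309, minus strand: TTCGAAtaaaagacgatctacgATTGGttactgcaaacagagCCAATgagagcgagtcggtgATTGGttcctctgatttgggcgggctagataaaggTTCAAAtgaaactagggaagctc
Prc1, chr7:80294356-80294475, plus strand: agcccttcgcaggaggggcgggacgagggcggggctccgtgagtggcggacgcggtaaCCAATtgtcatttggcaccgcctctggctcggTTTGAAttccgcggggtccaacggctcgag
Birc5, chr11:117849117-117849236, plus strand: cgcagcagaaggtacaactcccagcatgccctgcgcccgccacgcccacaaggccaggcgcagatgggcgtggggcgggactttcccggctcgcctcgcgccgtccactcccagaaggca

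**Figure D1:**
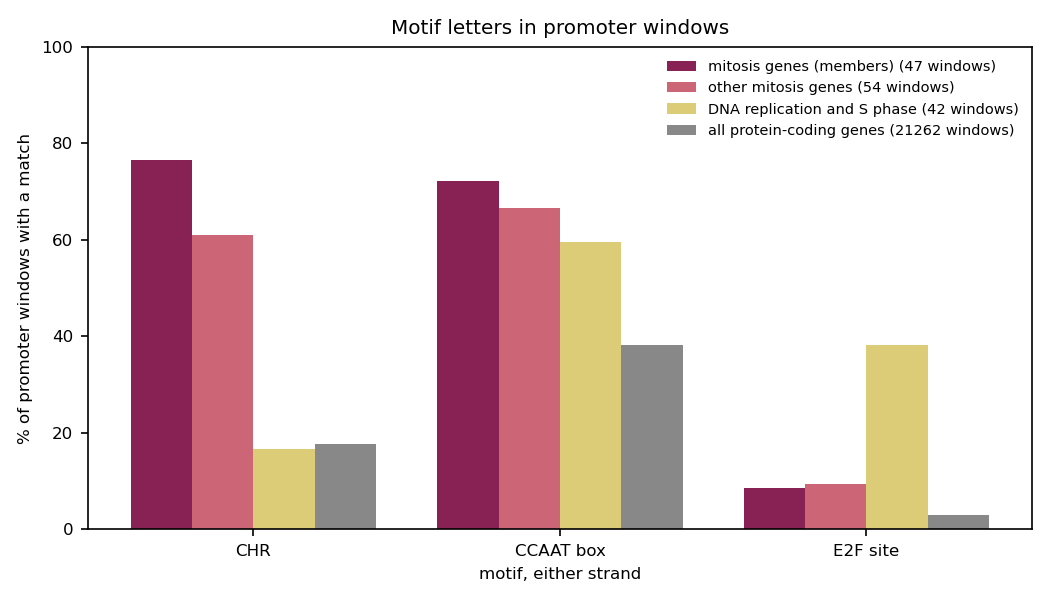
Share of promoter windows (percent, 300 bases each, either strand) that hold the letters of CHR, the CCAAT box or an E2F site, for the mitosis genes (47 windows), other mitosis genes, DNA replication and S phase genes, and all 21262 windows. CHR letters stand in 76.6% of the mitosis windows and in 17.6% of all windows.

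Mitosis genes were highest on the bright arrays of PNX-dnFGFR animals. The mean of the 51 genes was 6.62 and 5.97 on these 2 arrays, against 5.56 and 5.42 on the bright PNX arrays and 5.09 and 4.96 on the bright SHAM arrays. On dim arrays it was 5.16 and 4.48 after SHAM, 4.60 and 4.42 after PNX, and 4.43 and 4.69 with PNX-dnFGFR. The bright groups of the 3 conditions did not overlap in this mean, and the bright PNX and PNX-dnFGFR arrays lay above all dim arrays, while the bright SHAM arrays lay within the span of the dim SHAM arrays. Between 42 and 43 of the 51 genes exceeded the filter on the bright PNX-dnFGFR arrays, 29 to 36 on bright PNX, 22 to 28 on bright SHAM, and 12 to 27 on dim arrays. The first bright PNX-dnFGFR array was the highest of all 12 for 47 of the 51 genes, a pattern that 14% of all genes tested share.

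**Figure D2:**
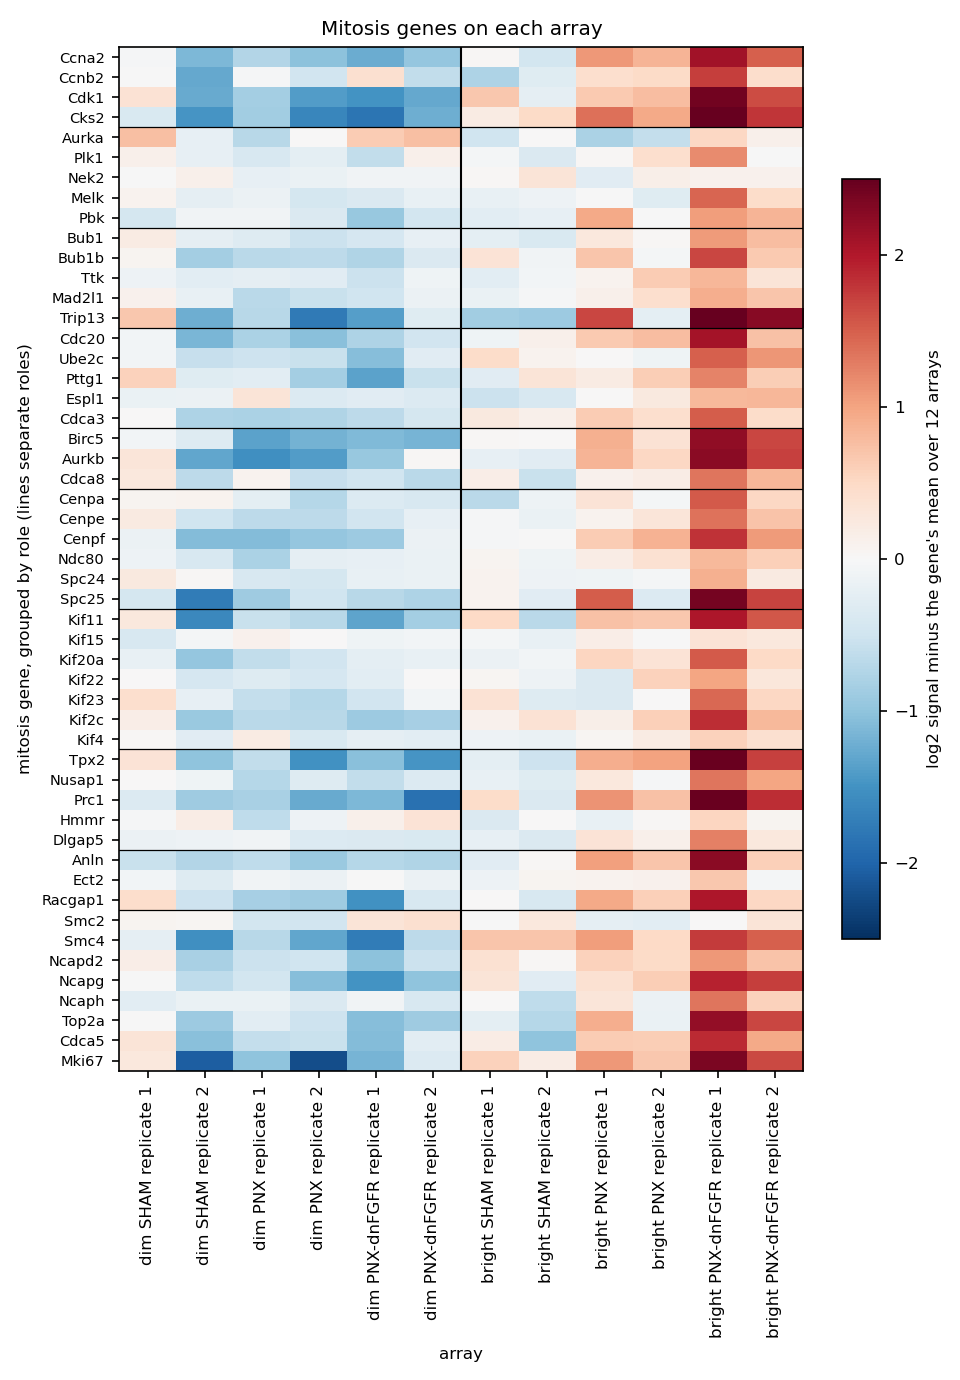
Log2 signal of the 51 measured mitosis genes on each of the 12 arrays, minus the gene's mean over the arrays; genes are ordered by role and the vertical line parts dim from bright arrays. Red prevails in the bright PNX-dnFGFR columns, of which the first holds the highest value of 47 genes, and Aurka, Nek2 and Smc2 do not follow.

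Between the gates, 35 of the 42 tested genes were higher on bright arrays as the mean over conditions and 0 were lower, with a median difference of 1.08. The share called in either direction among all genes tested was 47.8%, with 28.5% higher and 19.3% lower, so a large part of the transcriptome differed between the gates, with a median of 0.05. A call is a limma adjusted p below 0.05. The differences ran from -0.41 for Aurka to 2.46 for Cks2. By condition, 1 of 42 was higher in SHAM, where 19% of all genes were called, 11.5% higher and 7.53% lower. In PNX it was 16, against 18.4% of all genes, 11.4% higher and 7.07% lower. For PNX-dnFGFR the count was 37, against 34.4% of all genes, 21% higher and 13.5% lower. Lower calls among the members numbered 0 in each condition. In SHAM the share of members called higher, 1 gene, was below that of all genes, and with an array left out it ran from 0 to 4 (4 without dim SHAM replicate 1, 0 without any of the other 3 SHAM arrays or either bright PNX-dnFGFR array). In PNX, 6 members were called with bright replicate 1 left out, and 8 and 7 with dim replicates 1 and 2 left out.

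Many members passed the filter through the gate in which they were high: 18 of the 42 exceeded it on at least 2 dim arrays, and 24 only through bright arrays. Of the 18, 13 were higher on bright arrays in the mean, and 1, 8 and 13 in SHAM, PNX and PNX-dnFGFR. With low values raised to the filter (below, set to the filter), 29 of the 42 were called in the mean (46.2% of all genes tested), and 1, 13 and 33 in SHAM, PNX and PNX-dnFGFR. The calls lost were those of Cdca5, Cenpa, Dlgap5, Ndc80, Nusap1 and Pbk in the mean, of Cdca3, Cenpf and Ndc80 in PNX, and of Dlgap5, Ndc80, Pbk and Spc24 in PNX-dnFGFR. Of the 29, 15 had a mean difference over 1.5 times smaller on that scale, so sizes that rest on values below the filter are loose. They were Cks2, Bub1b, Trip13, Espl1, Cdca3, Cdca8, Cenpe, Cenpf, Spc25, Kif11, Kif2c, Tpx2, Racgap1, Ncapg and Top2a. By condition this held for 0 of 1, 6 of 13 and 14 of 33 calls. With no filter, 36 of all 51 were called higher in the mean, and 0, 16 and 42 by condition. The shares of all genes called without a filter, and by condition with values set to the filter, are not given here. Those counts are therefore not read against all genes. Over all 51 measured genes the median gate difference was 0.89 as the mean, and 0.11, 0.85 and 1.65 by condition, against -0.03 for the mean over all genes measured. By array, both bright arrays lay above both dim arrays for 10 of 51 genes after SHAM (33.2% of all genes tested), 43 after PNX (32.5%) and 46 with PNX-dnFGFR (40.5%). All 6 bright arrays lay above all 6 dim arrays for 9 genes (14.1% of all genes tested): Cks2, Cdca3, Birc5, Cenpf, Ndc80, Spc25, Kif20a, Anln and Smc4.

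**Figure D3:**
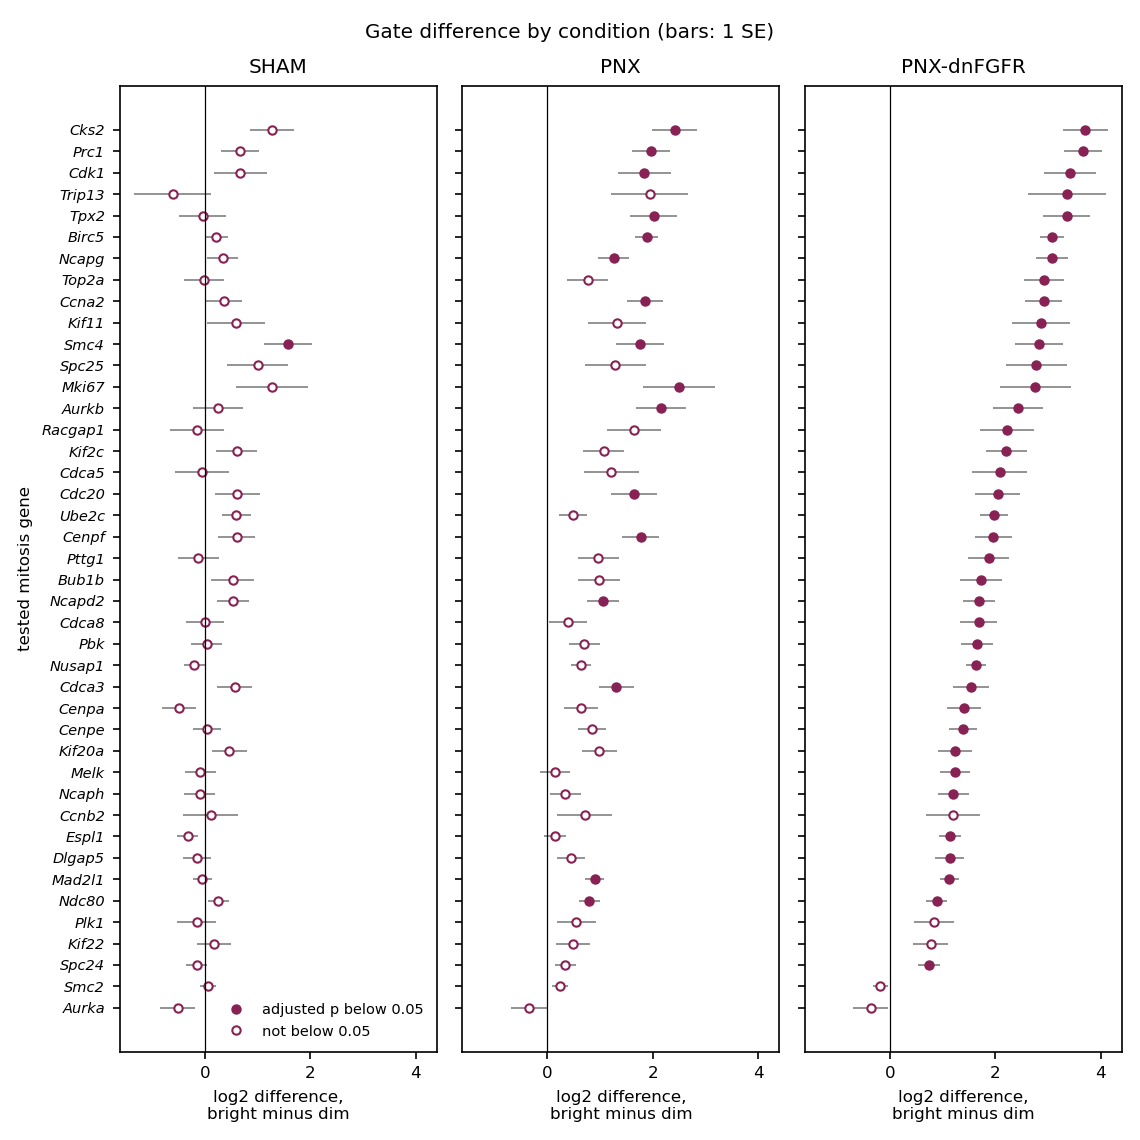
Difference between bright and dim arrays (log2, bars 1 SE) for the 42 tested mitosis genes in SHAM, PNX and PNX-dnFGFR; filled points have a limma adjusted p below 0.05. Filled points number 1, 16 and 37 from left to right, and Aurka lies left of 0 in all 3 panels.

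Within the bright gate, the conditions were compared next. The SHAM animals did not carry the dominant-negative receptor. PNX-dnFGFR against SHAM therefore changes the lung removal and the receptor together, and the effects of each cannot be told apart in it. PNX-dnFGFR was higher than SHAM for 16 of 42 genes and lower for 0 (5.2% of all genes tested called, 2.6% in each direction), with a median of 1.29 against 0.02 over all genes tested. The 16 were Birc5, Nusap1, Espl1, Top2a, Ncapg, Ccna2, Prc1, Tpx2, Mad2l1, Aurkb, Trip13, Cks2, Cenpa, Ncaph, Cenpe and Cenpf, and 5 of them also exceeded the filter on at least 2 dim arrays. With the mean of all probe sets of a gene, Nusap1, Top2a, Trip13 and Cenpf fell below the filter and could not be tested. The other 12 kept their calls. Over all 51 measured genes, both PNX-dnFGFR arrays lay above both SHAM arrays for 48 (32% of all genes tested) and below for 0 (27.6%). These counts depended on single arrays. Without bright SHAM replicate 2, 0 genes were called, and without replicate 1 there were 5. Without bright PNX-dnFGFR replicate 1 there was 1 call and without replicate 2 there were 5. Leaving out either dim PNX array left 10. With values set to the filter 21 were called (7.45% of all genes tested), including all 16, with smaller changes for Trip13 (2.04), Espl1 (0.58) and Nusap1 (0.51). The calls beyond the 16 were Cdk1, Cdca8, Spc25, Kif11 and Mki67. For PNX-dnFGFR against PNX 5 were called on that scale (0.704%). Setting values to the filter makes low values equal. This shrinks the shared estimate of the spread, also through dim arrays outside these comparisons. Calls gained on that scale are therefore not a check of the others.

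The steps between did not pass the threshold. For PNX against SHAM in bright arrays 0 of 42 genes were called (0.00903% of all genes tested), 7 had an unadjusted p below 0.05, and the median was 0.49. The smallest limma adjusted p was 0.46, for Ccna2 at 1.19 ± 0.35. For PNX-dnFGFR against PNX in bright arrays 0 were called (0.00903%), 24 had an unadjusted p below 0.05, and the median was 0.85. All 51 measured genes had a higher mean. The share of all genes with a higher mean is not given here, so this is not read against all genes. The smallest adjusted p was 0.077, for Birc5 at 1.32 ± 0.22. Without bright PNX replicate 1, 4 members were called in this comparison. By array, both PNX arrays lay above both SHAM arrays for 34 of 51 genes (21.2% of all genes tested), and both PNX-dnFGFR arrays above both PNX arrays for 36 (21.4%), with 3 (15.8%) and 0 (22.3%) the other way. The bright arrays followed the order SHAM, PNX, PNX-dnFGFR without overlap for 23 genes (5.2% of all genes tested), and the group means did for 45 (27.5%). The 3 comparisons share arrays, so these counts are not independent of each other.

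**Figure D4:**
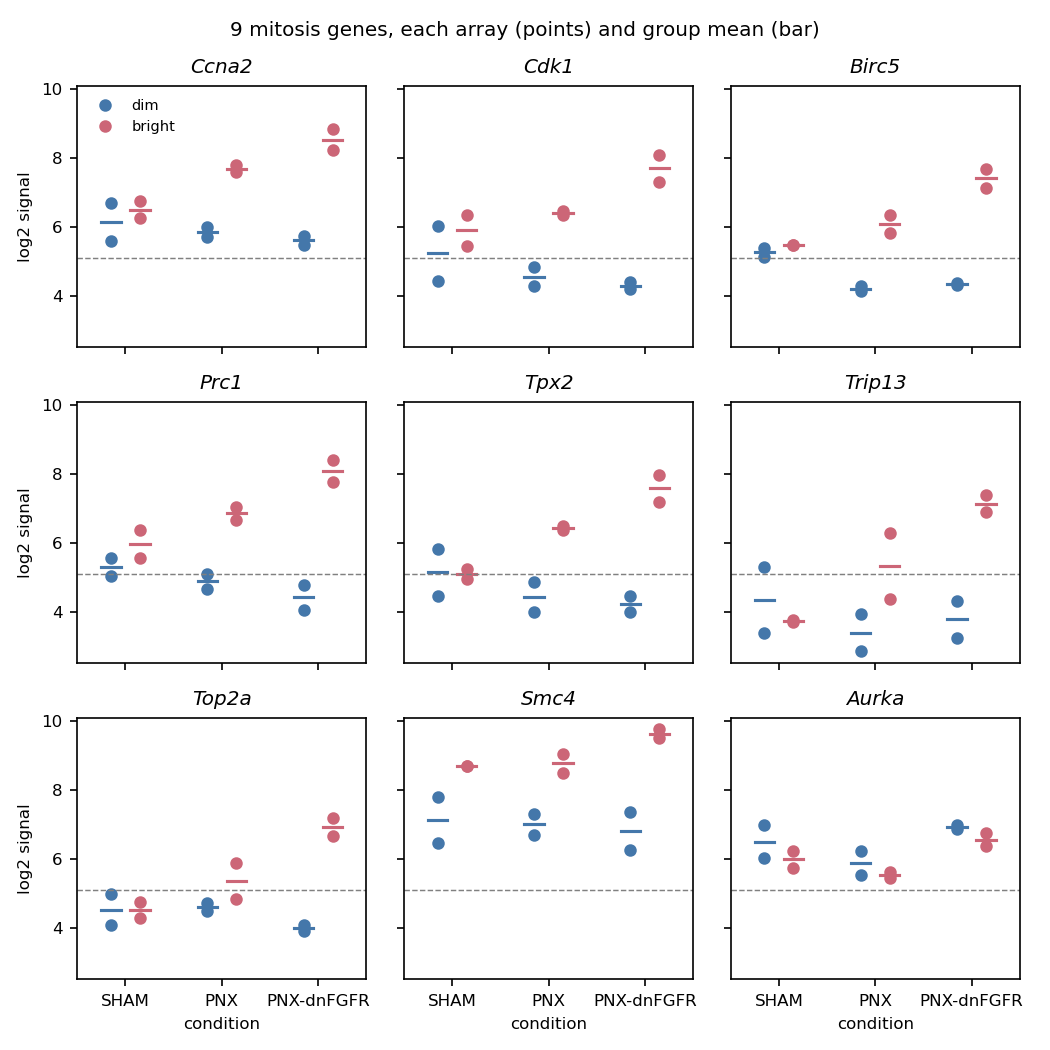
Log2 signal on each array (points) and group mean (bar) of 9 mitosis genes by condition and gate; the dashed line is the filter at 5.101. Tpx2 and Top2a are alike in both gates in SHAM and separate in PNX-dnFGFR, Smc4 is already apart in SHAM, and Aurka overlaps between gates.

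Cyclins and their kinase. Ccna2 encodes cyclin A2, which acts in S phase and early mitosis. On bright arrays it was 6.74 and 6.27 after SHAM, 7.80 and 7.58 after PNX, and 8.83 and 8.22 with PNX-dnFGFR. On dim arrays it was 6.69 and 5.60, 5.99 and 5.70, and 5.48 and 5.75. The gates overlapped in SHAM and were apart in PNX and PNX-dnFGFR, where the difference was 1.85 ± 0.35 (SE, limma adjusted p = 0.0056) and 2.91 ± 0.35 (adjusted p = 0.00029). Within bright arrays the 3 conditions did not overlap, and Ccna2 rose by 2.02 ± 0.35 from SHAM to PNX-dnFGFR (adjusted p = 0.019). Cdk1, the kinase that starts mitosis, was 6.35 and 5.46 on bright SHAM, 6.34 and 6.46 on bright PNX and 8.09 and 7.31 on bright PNX-dnFGFR arrays, against 4.19 to 6.04 on dim arrays. Its PNX-dnFGFR pair stood above the other bright arrays, which overlapped between SHAM and PNX. The change from SHAM to PNX-dnFGFR was 1.80 ± 0.50 and missed the threshold (adjusted p = 0.069), while the gate difference reached 3.41 ± 0.50 in PNX-dnFGFR (adjusted p = 0.00085). With values set to the filter the change from SHAM was 1.80 ± 0.37 and passed (adjusted p = 0.026). The change itself is the same, and only the error is smaller, because low dim values outside this comparison become equal. The pass is therefore not read as a result.

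Cks2, a small subunit that binds the kinase, had a mean gate difference of 2.46 ± 0.24 (limma adjusted p = 3.7e-05). It was 5.47 and 5.73 on bright SHAM, 6.63 and 6.21 on bright PNX and 7.84 and 7.05 on bright PNX-dnFGFR arrays, and 3.44 to 4.88 on dim arrays, so that no bright array overlapped a dim one. Its dim values all lay below the filter, and with values set to the filter the difference was 1.39, below the 2.05 of Smc4, the 1.79 of Prc1 and the 1.71 of Ccna2. Ccnb2, cyclin B2, was 5.00 and 5.47, 6.19 and 6.24, and 7.50 and 6.21 on bright arrays in the same order of conditions. Its dim arrays spanned 4.48 to 6.17, and its gate difference of 0.67 ± 0.30 did not pass (adjusted p = 0.092).

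Mitotic kinases. This group moved least. Aurka, the kinase of centrosomes and spindle poles, was 5.72 and 6.23 on bright SHAM, 5.43 and 5.62 on bright PNX and 6.74 and 6.36 on bright PNX-dnFGFR arrays, and 5.53 to 6.98 on dim arrays. The gates overlapped, and the difference of -0.41 ± 0.20 did not pass (limma adjusted p = 0.11). Plk1, which acts from mitotic entry to cytokinesis, was 6.02 to 7.58 on bright and 5.78 to 6.52 on dim arrays (0.41 ± 0.22, adjusted p = 0.15). Melk, a kinase of dividing cells, stood out on the bright PNX-dnFGFR arrays at 6.42 and 5.42, against 4.53 to 5.06 on the other 10. Its gate difference there was 1.23 ± 0.29 (adjusted p = 0.0095). Melk exceeded the filter on those arrays alone, and with values set to the filter the difference was 0.82 (adjusted p = 0.034). Pbk, another kinase active in mitosis, was 5.40 and 5.20 on those arrays and 5.30 and 4.35 on bright PNX arrays, and its mean gate difference passed at 0.80 ± 0.17 (adjusted p = 0.0042). Most of its values lay below the filter, and set to it they gave 0.10 (adjusted p = 0.24). Nek2, a centrosome kinase below the filter, kept within 3.64 to 4.25 on all 12 arrays.

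Spindle checkpoint. Trip13, an ATPase that remodels the checkpoint protein Mad2, was 3.76 and 3.72 after SHAM, 6.28 and 4.38 after PNX and 7.38 and 6.90 with PNX-dnFGFR, and 2.85 to 5.30 on dim arrays. The bright SHAM values, below the filter, lay inside the dim span and the PNX-dnFGFR values above it. From SHAM to PNX-dnFGFR it rose by 3.40 ± 0.73 (limma adjusted p = 0.036). With values set to the filter this was 2.04 (adjusted p = 0.012), smaller than for Tpx2 (2.40), Aurkb (2.23) and Prc1 (2.11). Mad2l1, which encodes Mad2, was 5.41 and 5.54, 5.70 and 5.98, and 6.48 and 6.25 on bright arrays, a smaller but tighter rise of 0.89 ± 0.18 (adjusted p = 0.029). It was also called between gates in PNX at 0.90 ± 0.18 (adjusted p = 0.008). Bub1b, the checkpoint kinase-like protein BubR1, was 6.71 and 5.68 on bright PNX-dnFGFR arrays and 4.17 to 5.73 elsewhere, and passed for the mean gate difference (1.07 ± 0.23, adjusted p = 0.0044; 0.51 and 0.04 with values set to the filter). Bub1 and Ttk, the checkpoint kinases below the filter, had their highest values on bright PNX-dnFGFR arrays, 4.08 and 3.78 for Bub1 and 4.88 for Ttk on the first array.

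Anaphase-promoting complex and separase. All 5 genes of this group were higher on bright arrays in the mean and in PNX-dnFGFR, and 2, Cdc20 and Cdca3, in PNX, where Cdca3 lost its call with values set to the filter (0.73, limma adjusted p = 0.11). With the mean of its probe sets Pttg1 lost its call in the mean over conditions (0.39, adjusted p = 0.1). Cdc20, which activates the complex at anaphase, was 6.20 and 6.44 on bright SHAM, 6.96 and 7.08 on bright PNX and 8.39 and 7.04 on bright PNX-dnFGFR arrays, against 5.17 to 6.24 on dim arrays. Its PNX-dnFGFR arrays lay far apart, and the second was level with bright PNX. The change from SHAM was 1.40 ± 0.43 (limma adjusted p = 0.09). Ube2c, the ubiquitin-conjugating enzyme of the complex, was 6.80 and 6.44 in bright SHAM, 6.35 and 6.25 in bright PNX and 7.84 and 7.46 in bright PNX-dnFGFR, so that PNX was no higher than SHAM. Its gate difference in PNX-dnFGFR was 1.98 ± 0.27 (adjusted p = 0.00062). Espl1, separase, which cuts the cohesin ring, rose within bright arrays from 4.31 and 4.45 in SHAM to 5.67 and 5.69 in PNX-dnFGFR (1.30 ± 0.20, adjusted p = 0.014). Pttg1, securin, its inhibitor, was 6.60 and 7.20 in bright SHAM and 8.11 and 7.50 in bright PNX-dnFGFR (0.91 ± 0.39, adjusted p = 0.21). Cdca3, which helps degrade Wee1, was 5.43 to 6.83 on bright and 4.51 to 5.31 on dim arrays.

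Chromosomal passenger complex. Birc5, survivin, which anchors Aurora B at centromeres, gave the clearest separation. On dim arrays it was 5.40 and 5.14 after SHAM, 4.13 and 4.28 after PNX and 4.37 and 4.31 with PNX-dnFGFR. On bright arrays it was 5.49 and 5.47, 6.35 and 5.83, and 7.68 and 7.14. The gates lay close in SHAM and apart in the other conditions. The SHAM difference was 0.21 ± 0.22 (limma adjusted p = 0.55), that of PNX 1.88 ± 0.22 (adjusted p = 0.00043; 0.99 with values set to the filter) and that of PNX-dnFGFR 3.07 ± 0.22 (adjusted p = 2.2e-05). Within bright arrays it rose by 1.93 ± 0.22 from SHAM to PNX-dnFGFR (adjusted p = 0.0062), a call lost without bright SHAM replicate 2 (the highest adjusted p with an array left out was 0.06). Within dim arrays its PNX value was 1.06 below SHAM (difference -1.06 ± 0.22, adjusted p = 0.12). Its promoter, shown above, holds neither a CHR nor a CCAAT match in the window. Aurkb, the kinase of the complex, was 5.38 and 5.30, 6.44 and 6.12, and 7.84 and 7.30 on bright arrays, a rise of 2.23 ± 0.47 (adjusted p = 0.034). Its dim arrays ranged from 4.05 to 5.90, the highest being SHAM replicate 1. Cdca8, borealin, was 6.53 and 6.01 on bright PNX-dnFGFR arrays and 4.50 to 5.46 on the other 10.

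Kinetochore and centromere. All 6 tested genes of this group were higher on bright arrays in PNX-dnFGFR, and 5 in the mean. With values set to the filter 4 and 3 remained. With the mean of its probe sets Cenpa lost its call in the mean over conditions (0.09, limma adjusted p = 0.62). Cenpf, a kinetochore protein of late G2, was 4.79 and 4.81 on bright SHAM, 5.45 and 5.68 on bright PNX and 6.62 and 5.87 on bright PNX-dnFGFR arrays, above its dim span of 3.72 to 4.66. Its mean gate difference was 1.45 ± 0.20 (limma adjusted p = 0.00034; 0.54 with values set to the filter), and it rose by 1.45 ± 0.35 from SHAM to PNX-dnFGFR (adjusted p = 0.049). Cenpa, the centromeric histone H3 variant, averaged 5.73 ± 0.39 (SD, n = 2) on bright SHAM arrays, with both below the dim SHAM pair at 6.21 and 6.22, and was 7.68 and 6.66 on bright PNX-dnFGFR arrays. Cenpe, a kinetochore motor, rose by 1.13 ± 0.27 (adjusted p = 0.045). The 3 measured members of the NDC80 complex, which grips microtubules, differed among themselves. Ndc80 had a mean gate difference of 0.64 ± 0.12 (adjusted p = 0.0014), with bright arrays at 4.54 to 5.44 and dim arrays at 3.85 to 4.51. Nearly all of these lie below the filter, and set to it they gave 0.08 (adjusted p = 0.3). Spc25 differed by 1.69 ± 0.33 (adjusted p = 0.0025; 0.64 with values set to the filter), but its bright PNX arrays were far apart at 6.02 and 4.17. Spc24 did not pass in the mean (0.31 ± 0.12, adjusted p = 0.055).

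Kinesins. Kif11, the motor that pushes spindle poles apart, was 5.16 and 3.97 on bright SHAM, 5.39 and 5.32 on bright PNX and 6.67 and 6.20 on bright PNX-dnFGFR arrays, and 3.04 to 4.91 on dim arrays. Its gate difference was called in PNX-dnFGFR at 2.87 ± 0.55 (limma adjusted p = 0.0036; 1.33 with values set to the filter) and not in SHAM (0.59 ± 0.55, adjusted p = 0.51). Kif20a, a motor of the central spindle, was 7.17 and 7.26 on bright SHAM and 8.86 and 7.81 on bright PNX-dnFGFR arrays, against a dim span of 6.36 to 7.14 (mean gate difference 0.89 ± 0.19, adjusted p = 0.0039). Kif2c, which takes microtubules apart at centromeres, was 6.88 and 5.84 on bright PNX-dnFGFR arrays and differed between gates by 1.29 ± 0.22 in the mean (adjusted p = 0.0012), or 0.56 with values set to the filter. Kif22, a chromokinesin, did not pass (0.47 ± 0.19, adjusted p = 0.062). None of the kinesins was called within bright arrays on the deposited values. With values set to the filter Kif11 was called there for PNX-dnFGFR against SHAM (1.31, adjusted p = 0.004) and against PNX (1.08, adjusted p = 0.022). All its dim values lie below the filter and become equal on that scale. This lowers the shared SE from 0.55 to 0.15 through arrays outside these comparisons, so the 2 calls are not read as results. Of the 3 kinesins below the filter, Kif15 stayed within 2.98 to 3.72 and Kif4 within 3.34 to 4.30, while Kif23, which bundles the central spindle, reached 5.00 on the first bright PNX-dnFGFR array from 2.84 to 4.06 elsewhere.

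Spindle microtubule proteins. Prc1, which crosslinks the microtubules of the central spindle, was 6.38 and 5.56 on bright SHAM, 7.04 and 6.66 on bright PNX and 8.39 and 7.77 on bright PNX-dnFGFR arrays. Its dim arrays ran the other way in value, from 5.57 and 5.03 after SHAM to 5.10 and 4.66 after PNX and 4.79 and 4.05 with PNX-dnFGFR. The gate difference of SHAM was 0.67 ± 0.36 (limma adjusted p = 0.24), that of PNX 1.97 ± 0.36 (adjusted p = 0.0052) and that of PNX-dnFGFR 3.66 ± 0.36 (adjusted p = 0.00011). Tpx2, which activates Aurora A and nucleates microtubules, was 5.24 and 4.96, 6.38 and 6.50, and 7.96 and 7.19 on bright arrays and 3.98 to 5.82 on dim arrays. It did not differ beyond its error in SHAM (-0.04 ± 0.45) and reached 3.35 ± 0.45 in PNX-dnFGFR (adjusted p = 0.00052). Within bright arrays Tpx2 rose by 2.48 ± 0.45 (adjusted p = 0.022), Prc1 by 2.11 ± 0.36 (adjusted p = 0.019) and Nusap1, another microtubule binder, by 1.40 ± 0.20 (adjusted p = 0.011). Nusap1 was 4.27 and 4.16 on bright SHAM and 5.79 and 5.44 on bright PNX-dnFGFR arrays, and 3.75 to 4.73 on the rest. Its other probe set was 4.14 and 3.77 on bright PNX-dnFGFR arrays. That was above bright SHAM (3.40 and 3.45) but no higher than bright PNX, with a mean gate difference of 0.055. Dlgap5 was called between gates in the mean (0.48 ± 0.16, adjusted p = 0.031), a call lost with values set to the filter (0.21, adjusted p = 0.27). Hmmr, below the filter, kept within 3.31 to 4.48 by the probe set used. The reading depends on the probe set: another of its probe sets reached 5.17 on the first bright PNX-dnFGFR array and was higher on bright arrays by 0.68 in the mean.

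Cytokinesis. Racgap1, part of the centralspindlin complex, was 5.29 and 4.88 on bright SHAM, 6.23 and 5.88 on bright PNX and 7.29 and 5.80 on bright PNX-dnFGFR arrays, and 3.77 to 5.71 on dim arrays. It was higher on bright arrays by 1.24 ± 0.30 in the mean (limma adjusted p = 0.0073). Anln, anillin, a scaffold of the contractile ring, lay below the filter by the rule of 2 arrays, yet its bright arrays (3.27 to 5.82) stood above its dim arrays (2.62 to 2.99). Ect2, the exchange factor that turns on RhoA at the furrow, stayed within 1.88 to 2.87, near the lowest values on the arrays.

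Chromosome structure. Smc4, a core subunit of condensin, was the member called in SHAM. It was 8.68 and 8.69 on bright SHAM, 9.03 and 8.49 on bright PNX and 9.74 and 9.49 on bright PNX-dnFGFR arrays, and 6.25 to 7.78 on dim arrays. The SHAM gate difference was 1.57 ± 0.46 (limma adjusted p = 0.04), the PNX value 1.76 ± 0.46 (adjusted p = 0.026) and the PNX-dnFGFR value 2.82 ± 0.46 (adjusted p = 0.0015). The SHAM call held in 7 of the 12 fits with an array left out, with differences from 0.91 to 2.23. Ncapg, a condensin I subunit, was 5.39 and 4.79, 5.44 and 5.68, and 6.99 and 6.80 on bright arrays and rose by 1.80 ± 0.30 from SHAM to PNX-dnFGFR (adjusted p = 0.017). Of its fellow subunits, Ncaph rose by 1.27 ± 0.29 (adjusted p = 0.041), and Ncapd2 was 0.71 ± 0.30 higher without passing (adjusted p = 0.21); the difference between them was not tested. Smc2, the partner of Smc4 in condensin, did not differ between gates by the probe set used (0.04 ± 0.09, adjusted p = 0.74), with bright arrays at 5.10 to 5.68 and dim arrays at 4.87 to 5.75.

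Top2a, the topoisomerase that untangles sister chromatids, was 4.73 and 4.27 on bright SHAM, 5.88 and 4.82 on bright PNX and 7.18 and 6.64 on bright PNX-dnFGFR arrays, and 3.91 to 4.97 on dim arrays. In SHAM the gates overlapped, with a difference of -0.01 ± 0.39, and in PNX-dnFGFR it was 2.92 ± 0.39 (limma adjusted p = 0.0005). It rose by 2.41 ± 0.39 within bright arrays (adjusted p = 0.015). Mki67, which coats mitotic chromosomes and is the usual marker of cycling cells, was 6.20 and 5.82, 6.72 and 6.29, and 7.99 and 7.27 on bright arrays. Its dim arrays spread from 3.40 to 5.89, so the error was larger, and the rise from SHAM to PNX-dnFGFR did not pass (1.62 ± 0.68, adjusted p = 0.2). With values set to the filter, which narrows that spread, the rise was 1.62 ± 0.30 and passed (adjusted p = 0.019). The rise itself is the same, and the dim arrays are outside this comparison, so the pass is not read as a result. Its mean gate difference was 2.18 ± 0.39 (adjusted p = 0.0015). Cdca5, sororin, which guards cohesion until anaphase, differed by 1.08 ± 0.30 (adjusted p = 0.015). No dim array exceeded the filter for it, and with values set to the filter the call was lost (0.27, adjusted p = 0.14).

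On dim arrays no member was called between conditions. For PNX against SHAM 0 of 42 genes were called (0.0452% of all genes tested, 0.0271% higher and 0.0181% lower), 5 had an unadjusted p below 0.05, the median was -0.32 and the smallest limma adjusted p was 0.12. For PNX-dnFGFR against SHAM 0 were called (0.0181%, and 0.00903% in each direction), with 4 at an unadjusted p below 0.05 and a median of -0.32. For PNX-dnFGFR against PNX 0 were called (0%), with 2 and a median of 0.01. By array, both dim PNX arrays lay below both dim SHAM arrays for 14 of 51 genes (19.9% of all genes tested) and above for 1 (24.5%). The dim SHAM arrays differed from each other: replicate 1 was above replicate 2 for 43 of 51 genes (51% of all genes tested) and was the highest of the 6 dim arrays for 35 (20.2%). The mean of 16 macrophage and dendritic cell markers moved with it, at 7.86 on replicate 1 and 6.53 on replicate 2, against 6.45 to 7.16 on the other 10 arrays. Their summed signal was 9257 and 3431, and 15 and 13 of the 16 exceeded the filter. Lyz2 and H2-Ab1 had the highest levels of that list. None of the 16 is at 0 on this scale. Their part in the dim SHAM values was not tested. Without dim SHAM replicate 1, 4 members in place of 1 were called higher on bright arrays in SHAM.

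Whether the gate difference itself changed between conditions was tested as a difference of differences. For PNX-dnFGFR against SHAM 1 of 42 genes was called (0.126% of all genes tested, 0.0993% higher and 0.0271% lower), Birc5, whose gate difference was larger by 2.86 ± 0.31 in PNX-dnFGFR (limma adjusted p = 0.031). With values set to the filter that of Birc5 was 2.09. The median over the 42 was 1.47, 31 had an unadjusted p below 0.05, and the next smallest adjusted p was 0.054, for Nusap1 at 1.83 ± 0.28. Nusap1 exceeded the filter on the bright PNX-dnFGFR arrays alone, and with values set to the filter its difference was 0.51 (adjusted p = 0.24). The Birc5 call held in 3 of the 12 fits with an array left out (2.59 to 3.13, adjusted p up to 0.15), and leaving out either bright PNX array gave 5 calls. For PNX against SHAM 0 were called (0%), with 11 at an unadjusted p below 0.05 and a smallest adjusted p of 0.57. For PNX-dnFGFR against PNX 0 were called (0%), with 10 and 0.47. So for most members the larger number of gate calls in PNX-dnFGFR than in SHAM was not matched by a call on the difference itself. On simulated data of this size, the test of PNX-dnFGFR against SHAM between gates recovered 0% of genes changed by 1 log2 and 81% of those changed by 2. The changed genes were drawn from all genes tested, whose residual SD had a median of 0.199, against 0.412 for the members. Recovery among members was not simulated and may be lower.

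Other probe sets of the same genes gave a check on the readings. For 28 members there was more than 1 probe set, with 41 besides those used. Of these 41, 31 had a higher mean on bright arrays and 10 a lower one. Of the 19 with a mean of at least 4, 16 were higher on bright arrays, and the exceptions belonged to Cenpa (-0.33), Pttg1 (-0.38) and Top2a (-0.18). For Smc2 the other probe sets disagreed with the chosen one and were higher on bright arrays by 1.04, 1.51 and 0.85, so the flat reading of Smc2 depends on the probe set. For Cenpf 1 other probe set was higher by 2.82 and the second, with a mean below 4, was -0.20. Those of Aurkb (1.84) and Smc4 (2.14 and 1.45) went the same way as the probe sets used.

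Lists of other cell cycle genes were read in the same way. Of all genes tested, 28.5% were higher and 19.3% lower on bright arrays in the mean. By condition 11.5%, 11.4% and 21% were higher in SHAM, PNX and PNX-dnFGFR, and 2.6% rose from SHAM to PNX-dnFGFR in bright arrays. Of 55 other measured mitosis genes 32 were tested, and 19 were higher on bright arrays in the mean and 0 lower (median 0.40), among them Cenpm (0.97) and Cenpp (0.72), kinetochore genes, Ckap2 (1.49), a spindle protein, and Wee1 (1.54), the kinase that restrains Cdk1. By condition 1, 5 and 19 of the 32 were higher in SHAM, PNX and PNX-dnFGFR, and 7 rose from SHAM to PNX-dnFGFR in bright arrays. Of 34 tested DNA replication and S phase genes 24 were higher and 1 lower (median 0.76), with Rrm1 (1.16), a subunit of ribonucleotide reductase, Rfc3 (1.43), of the clamp loader, Mcm6 (1.41), of the replicative helicase, and Pole2 (1.24), of a DNA polymerase. The counts by condition were 3, 9 and 26, and 16 rose from SHAM to PNX-dnFGFR in bright arrays. In SHAM neither list exceeded the share of all genes tested. For both lists 0 were called for PNX against SHAM in bright arrays (0.00903% of all genes tested).

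Among regulators, Foxm1, the factor that binds late cell cycle promoters, was higher on bright arrays by 0.73 ± 0.12 in the mean (limma adjusted p = 0.00093) and by 1.03 ± 0.21 in PNX-dnFGFR (adjusted p = 0.0048). Mybl2, which encodes B-Myb, did not differ beyond its error (-0.01 ± 0.27, adjusted p = 0.99). Of the 12 tested transcription factors of cell cycle genes 5 were higher, among them Tfdp1 (0.54) and Tfdp2 (0.91), and 1 was lower, Lin52 (-0.59). Of 6 G1 cyclins and kinases Cdk4 (0.80), Ccnd2 (1.03) and Cdk6 (0.81) were higher and Ccnd3 (-0.41) lower. Of 8 CDK inhibitors and pocket proteins, Cdkn1c (1.67), Cdkn1a (1.34) and Cdkn2b (1.23) were higher and Cdkn2c (-1.90) was lower. In SHAM alone 3 of these 8 were higher and 1 lower, against 11.5% and 7.53% of all genes tested. Of 13 measured genes of the anaphase-promoting complex and its regulators 7 were higher and 2 lower, with Anapc13 (0.64), Cdc26 (0.55), Ube2s (0.51) and Fbxo5 (0.42) among the higher. In the mean, 28.5% of all genes tested were higher and 19.3% lower. Counts in lists this small are not read as results about the lists.

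Markers of other cells were read beside these results. The mean of 8 mesothelial markers was 6.15 and 5.41 on bright SHAM, 7.59 and 4.78 on bright PNX and 6.60 and 7.02 on bright PNX-dnFGFR arrays, and 4.29 to 5.89 on dim arrays. Their summed signal was 2182 to 3152 on bright PNX-dnFGFR, 1562 to 2062 on bright SHAM, 1441 to 3610 on bright PNX, 358 to 383 on dim PNX-dnFGFR and 363 to 2100 on the other dim arrays, with 6 to 7 of 8 above the filter on bright PNX-dnFGFR arrays and 2 on dim PNX-dnFGFR arrays. In value these markers too were higher on bright than on dim PNX-dnFGFR arrays. Between PNX-dnFGFR and SHAM in bright arrays 0 of 7 tested were called (5.2% of all genes tested). The bright PNX arrays, which differed most in mesothelial markers, had mitosis means of 5.56 and 5.42, while both lists were high on the bright PNX-dnFGFR arrays. The part of mesothelial cells in the results was not tested. Nkain4 and Krt19 had the highest levels of that list. Lymphocyte markers (10 genes) were at 4.41 to 4.89 on bright and 5.01 to 5.69 on dim arrays, and endothelial markers (15 genes) at 5.49 to 5.88 and 5.29 to 6.04. The mean of 16 epithelial markers spanned 6.28 to 7.50 on bright and 6.57 to 7.63 on dim arrays. Smooth muscle and pericyte markers (6 genes) separated the gates without overlap, with a summed signal of 537 to 1410 on bright and 340 to 473 on dim arrays and 3 to 5 of 6 above the filter. Of the 5 tested, Acta2 (2.15) and Myh11 (1.03), of the contractile apparatus, were higher on bright arrays in the mean and Des (-0.66) was lower. The shares of all genes tested were 28.5% and 19.3%. The part of such cells in the gate difference was not tested. The mean of 2 erythroid genes was 8.76 and 5.09 on bright PNX and 7.72 and 7.70 on bright PNX-dnFGFR arrays, 5.51 and 5.43 on dim PNX-dnFGFR arrays, and 5.71 to 9.17 on the other 6.

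**Figure D5:**
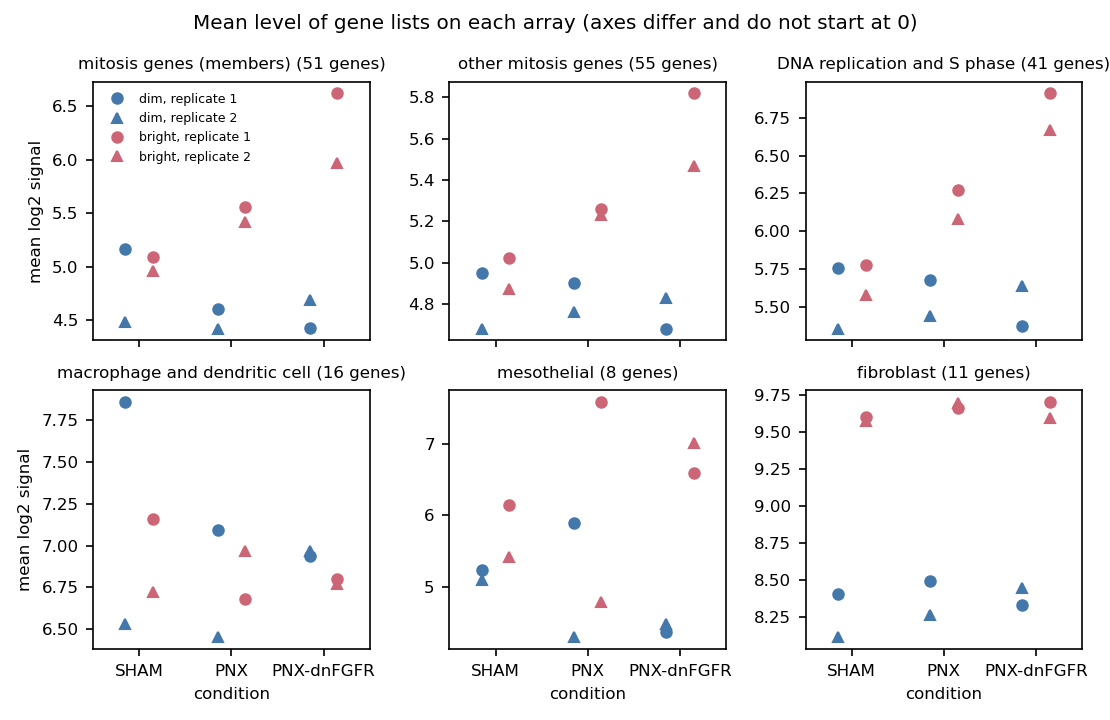
Mean log2 signal of gene lists on each array by condition and gate (circles replicate 1, triangles replicate 2; axes differ and do not start at 0). Mitosis genes climb from SHAM to PNX-dnFGFR on bright arrays, from 5.09 and 4.96 to 6.62 and 5.97, the macrophage list peaks on dim SHAM replicate 1 at 7.86, and mesothelial markers split the bright PNX arrays at 7.59 and 4.78.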

How the data were processed

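RNA of the 12 sorted samples was read on Affymetrix mouse arrays. The deposited values are log2 signals made with RMA, per the submitters' processing notes; not given in the sources used here are its version and settings. They were used as deposited. Of 45141 probe sets 104 controls were left out, and 28898 had 1 gene name. A model with 1 mean per group and 13 contrasts was fitted to all 11073 genes with limma 3.58.1 (R 4.3.3; residual degrees of freedom 6, prior 3.31), and the Benjamini-Hochberg adjustment of p-values ran over all of them. The residual SD had a median of 0.199 over all genes and 0.412 over the members, and 2 arrays per group limit the precision. The members, the companion and marker lists and the tests were chosen with earlier results of these data known. Any member may be named; of a companion list, up to 4 called genes with the smallest adjusted p, and of a marker list those with the highest level. Foxm1, Mybl2, Cdkn1a, Pdgfra and Col1a1 are always named. The alternatives were other filters, values held at the filter, the mean of probe sets, another quantile normalization, a variance trend, only the groups compared, a replicate block and each array left out. The fit was tested on simulated data: of genes changed by 1 log2, 89% were found for the mean gate difference and 49.5% for PNX-dnFGFR against SHAM in bright arrays. The changed genes were drawn from all genes tested, so these shares may not hold for the members, whose residual SD was larger.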

Additional observations from a re-analysis of the deposited data

Results flagged for a closer look

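The gate difference of Birc5 itself differed between conditions, by a test of that difference: bright minus dim was larger in PNX-dnFGFR than in SHAM by 2.86 on the log2 scale (limma adjusted p = 0.031). Part of it rests on dim arrays, at 5.40 and 5.14 in SHAM and, below the filter, 4.37 and 4.31 in PNX-dnFGFR. With values set to the filter it was 2.09. The call held in 3 of the 12 fits with an array left out, with adjusted p up to 0.15, and other settings are given below. Its cause was not tested.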

How the results depend on the processing

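Counts of members called are given here against those of the report. The shares of all genes called under each setting are not given, so the counts show only how the calls move between settings. The stricter filter (log2 6.762, which left 17 members) gave 15 for the mean gate difference, 2 in SHAM, 15 in PNX-dnFGFR, 1 for PNX-dnFGFR against PNX in bright arrays, 9 against SHAM and 2 for the difference of gate differences between PNX-dnFGFR and SHAM. In SHAM the count was 0 with no filter and 0 with only the groups compared. Values held at the filter gave 29 for the mean gate difference, 13 in PNX and 33 in PNX-dnFGFR, 21 for PNX-dnFGFR against SHAM in bright arrays, 5 for PNX-dnFGFR against PNX in bright arrays and 4 for that difference of differences, for which the mean of probe sets gave 2, the variance trend 3 and only the groups compared 3. The cause was not tested beyond the smaller number of genes under the stricter filter. Values held at the filter lose their spread below it, so calls gained under that setting are not read as results. With an array left out, counts ran from 30 to 39 for the mean gate difference, 0 to 4 in SHAM, 6 to 19 in PNX (6 without bright PNX replicate 1, 7 without dim PNX replicate 2, 8 without dim PNX replicate 1), 26 to 39 in PNX-dnFGFR, 0 to 18 for PNX-dnFGFR against SHAM and 0 to 4 against PNX in bright arrays, and 0 to 5 for the difference of differences. Smc2 turned from 0.04 to -0.03 with values held at the filter and to -0.07 after another quantile normalization, all within its error. The replicate block gave 35, 2, 18 and 37 for the mean, SHAM, PNX and PNX-dnFGFR gate differences, 20 for PNX-dnFGFR against SHAM in bright arrays (15 of them among the 16) and 1 for the difference of differences, which was Prc1 (2.99, adjusted p = 0.024), while Birc5 lost its call (2.86, adjusted p = 0.057). The numbers were not taken to pair the samples, since not every correlation exceeded 0.1: differences between replicates 1 and 2 in bright and dim arrays correlated across genes at 0.01 for SHAM, 0 for PNX and 0.13 for PNX-dnFGFR. Within bright arrays they were 0.29 for SHAM with PNX, 0.35 for SHAM with PNX-dnFGFR and 0.06 for PNX with PNX-dnFGFR, and within dim arrays 0.17, -0.09 and 0.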
